A study of Mus musculus with 6 samples.

Results

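Genes of MHC class II antigen presentation were followed in mouse long-term hematopoietic stem cells (LT-HSCs): H2-Aa, H2-Ab1, H2-Eb1, Cd74, H2-DMa, H2-DMb1 and Ciita. They were taken by gene name, and are 7 of the 55487 genes in the deposited table. The cells were sorted from the bone marrow of wild-type mice that had not been irradiated, as Lineage-, Sca-1+, c-Kit+, Flk2- and CD34- cells. There were 3 libraries from mice given saline and 3 from mice given carnosine, the dipeptide of beta-alanine and histidine. The sources used here give no dose or duration of carnosine and no strain, age, sex or number of mice. Nothing states that libraries of 1 group came from separate mice, so the p-values measure the spread between these libraries, which may be technical.

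MHC class II molecules are heterodimers of an alpha and a beta chain that carry peptides from the endosomal pathway to the cell surface, where CD4 T cells read them. The invariant chain, Cd74, fills the groove of newly made dimers and guides them to endosomes, where proteases cut it down and the editor H2-DM exchanges the remaining fragment for other peptides. Ciita is the coactivator that switches on this set of genes. B cells, dendritic cells and activated macrophages are the classic class II-positive cells, and class II has also been described on blood stem and progenitor cells.

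Class II genes are known for a shared promoter layout, an X box bound by the RFX complex followed by a Y box bound by NF-Y. The stretches below are shown because H2-Aa, H2-Eb1 and H2-DMb1 share this layout with 3 other class II genes. They come from the RefSeq promoter windows (GRCm38.p6), each running from 250 bases before to 50 bases after the annotated start, and are written 5′ to 3′ on the strand of the gene. Capitals mark GNAAC, the start of the X box, and TGATTGG, the core of the Y box, the second beginning 28 to 31 bases after the first. This pair and its spacing were chosen after the sequences were viewed.
H2-Aa, chr17:34287859-34287912, minus strand: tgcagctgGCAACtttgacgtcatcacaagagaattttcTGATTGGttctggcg
H2-Eb1, chr17:34305768-34305820, plus strand: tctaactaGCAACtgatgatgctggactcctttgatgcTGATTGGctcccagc
H2-DMb1, chr17:34153089-34153142, plus strand: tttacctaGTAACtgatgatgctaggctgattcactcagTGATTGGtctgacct
H2-Ob, chr17:34238810-34238860, plus strand: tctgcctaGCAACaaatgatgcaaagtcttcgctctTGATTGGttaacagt
H2-Oa, chr17:34092295-34092348, plus strand: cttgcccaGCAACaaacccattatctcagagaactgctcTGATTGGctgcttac
H2-Eb2, chr17:34325535-34325587, plus strand: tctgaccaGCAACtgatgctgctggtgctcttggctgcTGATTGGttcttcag

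In these windows GNAAC began 81 bases before the start of H2-Aa, 91 before H2-Eb1, 94 before H2-DMb1, 87 before H2-Ob, 76 before H2-Oa and 132 before H2-Eb2. Of 32851 promoter windows of 300 bases searched on either strand, GNAAC alone was in 84.8% and TGATTGG alone in 7.82%. The spaced pair was in 36 windows, 0.11%. On the strand of the gene, the window of H2-DMb2 held TGATTGG without the pair, and neither of the windows of H2-DMa held TGATTGG. Matches on the other strand were not listed for these genes, unlike in the shares over all windows. These are matches of letters and not measured sites. Windows of H2-Ab1, Cd74 and Ciita were not analysed here. Of the genes that share the pair, H2-Aa was called higher and H2-Ob lower in the values below. The calls of both were lost in some fits with a library left out. H2-Eb1, H2-DMb1, H2-Oa and H2-Eb2 were not called. Any link between the pair and these changes was not tested.

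Library totals were 10304539 to 13251332 counts, so that 3 counts, the limit that a count of 0 allows, equal 0.227 to 0.291 CPM (counts scaled to library size), for counting error only. The first principal component of log2 CPM, 48.2% of the variance, separated saline from carnosine. Of 15298 genes that passed the filter on low counts, 2738 had an edgeR adjusted p under 0.05 (17.9% called), 1455 higher in carnosine (9.51%) and 1283 lower (8.39%). All 12 genes of the list for the sorting gate and stem cell identity passed the filter, with 1 higher (Mecom) and 1 lower (Ly6e). Cd34 and Flt3 (which encodes Flk2), whose proteins the gate excludes, were nonetheless at 857 ± 24.5 and 818 ± 15.1 CPM in saline (SD, n = 3).

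All 7 class II genes passed the filter, and their response to carnosine was small and mixed. H2-Aa, the alpha chain of the I-A molecule, was higher in carnosine and was the 1 of 7 called (14.3%, against 17.9% of all genes tested). Ciita RNA was lower in every carnosine library than in any saline library, by 37.4%, but missed the threshold. The groups of H2-Ab1, H2-Eb1, Cd74, H2-DMa and H2-DMb1 overlapped. Groups that do not overlap were found for 2 of the 7, and for 38.7% of all genes tested. The median log2 fold change, carnosine against saline, was 0.02 over the 7 genes and 0.00 over all genes tested. The sum of the 7 levels was 340 to 366 CPM in saline and 320 to 364 CPM in carnosine. In these bulk libraries, fewer cells carrying a transcript and less of it per cell cannot be told apart.

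**Figure D1:**
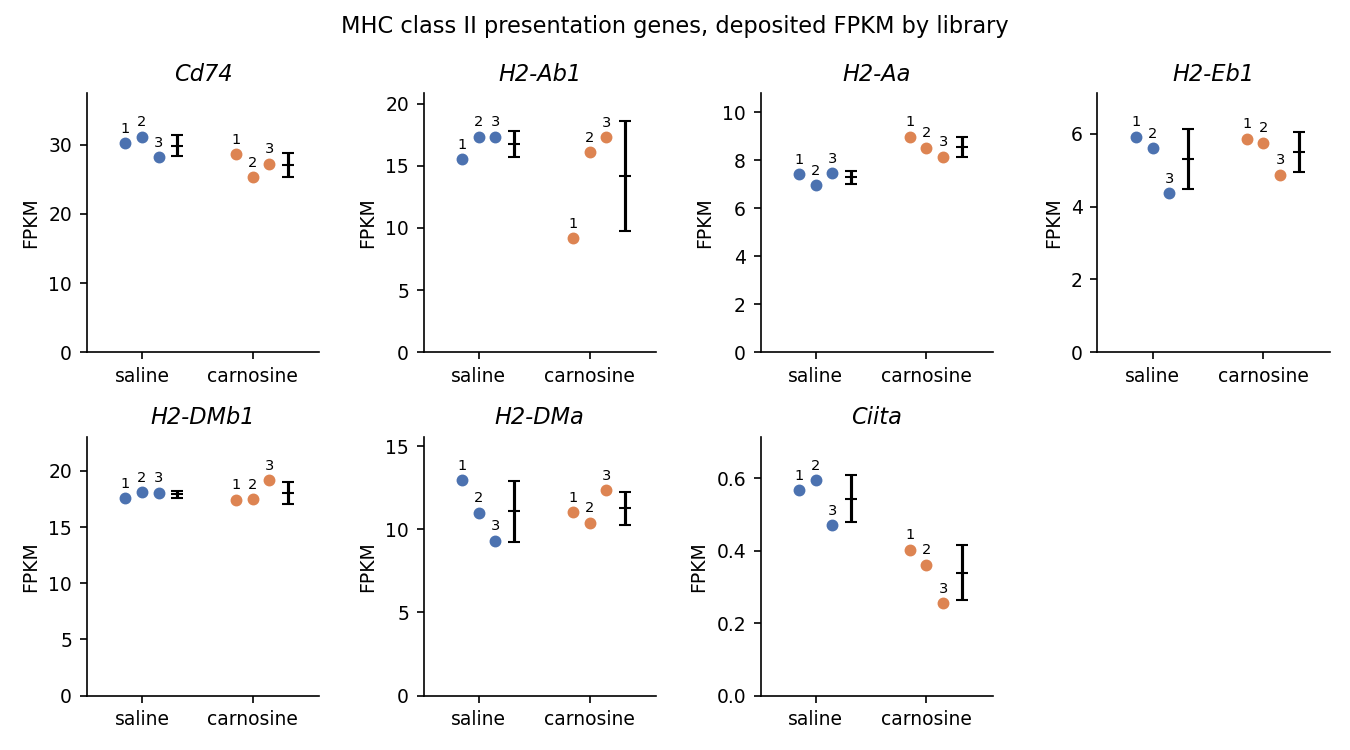
Deposited FPKM (reads scaled to gene length and library size) of the 7 class II genes in each of the 3 saline and 3 carnosine libraries, with the mean and SD of each group. The groups of H2-Aa (saline below) and Ciita (saline above) do not overlap, and carnosine replicate 1 of H2-Ab1 sits at 9.15 FPKM, below the other libraries of that gene.

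The chains that form the peptide groove come first. H2-Aa lies at chr17:34282744-34287823 (GRCm38) on the minus strand. Its level was 34.9, 32.8 and 35.2 CPM in saline replicates 1 to 3 and 42.5, 40.3 and 38.5 CPM in carnosine replicates 1 to 3. Every carnosine library was above every saline library, as it was for 19.7% of all genes tested. The rise was from 34.3 ± 1.29 to 40.4 ± 1.98 CPM (SD, n = 3), or 17.7% (95% interval 6.22% to 30.5%), with a log2 fold change of 0.24 (SE 0.06) and an edgeR adjusted p of 0.0419. The call was close to the threshold and did not survive leaving out any 1 of the 6 libraries (edgeR adjusted p of 0.0576 to 0.124). It was also lost with DESeq2 (adjusted p = 0.133), with upper-quartile scaling in edgeR (0.0544) and with no filter (0.0742), while the log2 fold change stayed between 0.20 and 0.27.

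H2-Ab1, the beta chain that pairs with H2-Aa, lies at chr17:34257689-34269419 on the plus strand. Its level was 83.6, 93.4 and 93.6 CPM in saline and 49.5, 87.1 and 93.7 CPM in carnosine. One carnosine library, replicate 1, was low, with 597 counts against 906 and 1236 in the other carnosine libraries, and the groups overlapped. The group means were 90.2 ± 5.73 and 76.8 ± 23.8 CPM (SD, n = 3). The log2 fold change was -0.23 (SE 0.21, 95% interval -0.72 to 0.26) with an edgeR adjusted p of 0.485. Without carnosine replicate 1 the log2 fold change was 0.00 (SE 0.07, edgeR adjusted p = 0.986), so the lower mean rested on that library. H2-Ab1 in carnosine replicate 1 was at 0.568 of the lower of the other carnosine libraries. Of 3940 genes averaging 50 to 200 CPM, 19 were as far below their group as 1.5-fold in that library (0.482%), and 13 to 29 in the 6 libraries.

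The low H2-Ab1 count of carnosine replicate 1 carried over into the ratio of the I-A chains. Other genes also stood apart in single libraries, such as Hlf at 361 CPM in carnosine replicate 1 against 205 to 222 CPM in the others, and whether the low H2-Ab1 value reflects the RNA or its counting was not tested. The ratio of H2-Aa to H2-Ab1 in deposited FPKM, formed after the values were seen, was 0.478, 0.402 and 0.430 in saline and 0.981, 0.529 and 0.470 in carnosine. Carnosine replicate 1 lay far above every saline library, replicate 2 just above them, and replicate 3 within their range.

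H2-Eb1, the beta chain of I-E, lies at chr17:34305867-34316674 on the plus strand. It was at 20.7, 19.6 and 15.3 CPM in saline and 20.6, 20.2 and 17.1 CPM in carnosine, with overlapping groups. The means were 18.5 ± 2.84 and 19.3 ± 1.89 CPM (SD, n = 3). The log2 fold change was 0.06 (SE 0.13, 95% interval -0.25 to 0.37) with an edgeR adjusted p of 0.786. H2-Ea, the alpha chain that would pair with it, had 0 counts in each of the 6 libraries. The annotation marks H2-Ea as a polymorphic pseudogene, which some mouse strains cannot express.

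The invariant chain Cd74, at chr18:60803848-60812652 on the plus strand, had the highest deposited FPKM of the 7 genes. Its level was 91.5, 94.5 and 85.6 CPM in saline and 87.2, 77.0 and 82.9 CPM in carnosine. Only carnosine replicate 1 reached into the saline range. The means were 90.5 ± 4.52 and 82.4 ± 5.08 CPM (SD, n = 3), and the log2 fold change of -0.14 (SE 0.06, 95% interval -0.28 to 0.01) had an edgeR adjusted p of 0.165. The mean of Cd74 was lower in carnosine and that of H2-Aa higher, and the difference between the 2 genes was not tested. The FPKM ratio of Cd74 to H2-Aa was 4.08, 4.48 and 3.79 in saline and 3.19, 2.98 and 3.35 in carnosine. This ratio, formed after the values were seen, did not overlap between the groups, with means of 4.11 ± 0.348 and 3.17 ± 0.188 (SD, n = 3). H2-Aa by itself already did not overlap, so the ratio partly restates that result. How often ratios of other gene pairs do not overlap was not counted.

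The chains of H2-DM, the editor that swaps the Cd74 fragment for peptide, differed between the groups by less than the spread between libraries. H2-DMa (chr17:34119541-34139101, plus strand) was at 89.9, 76.3 and 64.7 CPM in saline and 76.8, 72.5 and 86.1 CPM in carnosine. The saline libraries spanned a wider range than the carnosine libraries, which lay inside it. The means were 77.0 ± 12.6 and 78.5 ± 6.95 CPM (SD, n = 3), with a log2 fold change of 0.03 (SE 0.12, 95% interval -0.25 to 0.31, edgeR adjusted p = 0.885). H2-DMb1 (chr17:34153072-34160230, plus strand) was at 38.3, 39.5 and 39.4 CPM in saline and 38.1, 38.3 and 42.0 CPM in carnosine. Its groups overlapped, and it had a log2 fold change of 0.02 (SE 0.06, 95% interval -0.13 to 0.16, edgeR adjusted p = 0.893). The ratio of H2-DMa to H2-DMb1 in FPKM was 0.515 to 0.737 in saline and 0.595 to 0.644 in carnosine.

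Ciita, the coactivator of this gene set, lies at chr16:10480059-10528418 on the plus strand and was the least abundant of the 7. It had 75, 78 and 79 counts in saline and 62, 48 and 43 in carnosine, or 7.22, 7.58 and 5.99 CPM against 5.14, 4.62 and 3.26 CPM. The lowest saline library was above the highest carnosine library, as it was for 19% of all genes tested. The means were 6.93 ± 0.831 and 4.34 ± 0.971 CPM (SD, n = 3). The log2 fold change was -0.67 (SE 0.20, 95% interval -1.13 to -0.22), with an unadjusted p of 0.00958 and an adjusted p of 0.0523 in edgeR's test. On deposited FPKM, which lies under 1 for this gene, the log2(FPKM + 1) difference was -0.21 and understates the change. The FPKM ratio of H2-Aa to Ciita, also formed after the values were seen, was 13.1, 11.7 and 15.9 in saline and 22.3, 23.6 and 31.9 in carnosine. H2-Aa was higher and Ciita lower in every carnosine library than in any saline library. Their ratio therefore had to separate the groups and is no further result.

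Some of these loci overlap other genes, and the sources used here do not give the strand setting of the counting. Ciita overlaps Dexi on the opposite strand over 25888 bases, and Dexi did not pass the test, with a mean of 15.8 CPM in saline and 16.8 in carnosine (edgeR adjusted p = 0.519). H2-DMa overlaps Brd2, on the opposite strand, over 3094 bases. Brd2 is a far more abundant gene and fell from 495 to 423 CPM (edgeR adjusted p = 0.00219), and the level of H2-DMa is uncertain to the extent that reads were shared. H2-DMb1 and H2-DMb2 are similar copies whose reads could be split between them.

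Levels between genes are compared per length. On the deposited FPKM, as the mean of the 6 libraries with the lowest and highest, Cd74 was at 28.5 (25.3 to 31.2) and H2-DMb1 at 18.0 (17.4 to 19.2). H2-Ab1 was at 15.5 (9.15 to 17.3) and H2-DMa at 11.2 (9.30 to 12.95). H2-Aa was at 7.91 (6.96 to 8.98), H2-Eb1 at 5.40 (4.37 to 5.92) and Ciita at 0.442 (0.255 to 0.595). H2-Ab1 and H2-DMa overlapped through carnosine replicate 1, and the ranges of H2-DMb1 and H2-Ab1 almost touched, while the other neighbours in this order did not overlap.

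That order depends on the gene model. The length behind the deposited FPKM was 5390 bases for H2-Ab1, 4711 for H2-Aa and 6943 for H2-DMa, against 1212, 1128 and 1658 bases for the principal transcript in GENCODE M21. On the principal transcript length, a choice made after seeing the data, the means ran H2-Ab1 (68.7 FPKM), Cd74 (61.2), H2-DMa (46.8), H2-Aa (33.0), H2-DMb1 (27.9), H2-Eb1 (11.3) and Ciita (0.936). The range of H2-Ab1 (40.7 to 77.1) spanned that of Cd74 (54.4 to 67.0) and overlapped that of H2-DMa (38.9 to 54.2), and H2-Aa (29.1 to 37.5) overlapped H2-DMb1 (27.1 to 29.8). The order within these pairs is therefore not settled, while the ranges of the other neighbours did not overlap. Neither scale alters the comparison of carnosine with saline, in which the length of a gene cancels.

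Of 48 other class II pathway genes in the table, 43 were tested, 5 were higher and 4 lower (20.9% called, against 17.9% of all genes tested), with a median log2 fold change of 0.00. Leaving out saline replicate 3, carnosine replicate 1 or carnosine replicate 3 lowered the 9 calls to 5 each time. The calls fell into promoter factors, regulators of Ciita, ligand and co-receptor of Cd74, a protease of Cd74 and the beta chain of H2-O.

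Among the other class II chains and editors, 4 of 5 were tested and 1 was lower (25% called, against 17.9% of all genes tested). H2-Ob (chr17:34238903-34254414), the beta chain of H2-O, which restrains H2-DM, was at 87.6, 90.7 and 99.2 CPM in saline and 71.0, 72.6 and 81.3 CPM in carnosine. All carnosine libraries were below all saline libraries. It fell from 92.5 ± 5.97 to 75.0 ± 5.52 CPM (SD, n = 3), and the log2 fold change was -0.30 (SE 0.07) with an edgeR adjusted p of 0.0235. The call was lost in edgeR without saline replicate 2 (0.0588), saline replicate 3 (0.0706), carnosine replicate 1 (0.0752) or carnosine replicate 2 (0.0741). H2-Oa, its alpha partner, was at 11.2 to 14.9 CPM in saline and 12.7 to 16.4 CPM in carnosine, with a log2 fold change of 0.10 (edgeR adjusted p = 0.681). H2-DMb2, the second H2-DM beta chain, was at 5.63 to 6.54 and 4.70 to 5.39 CPM (log2 fold change -0.22, edgeR adjusted p = 0.307). H2-Eb2, a scarce beta chain, was at 0.777 to 1.25 and 1.24 to 1.67 CPM (log2 fold change 0.43, edgeR adjusted p = 0.326).

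**Figure D2:**
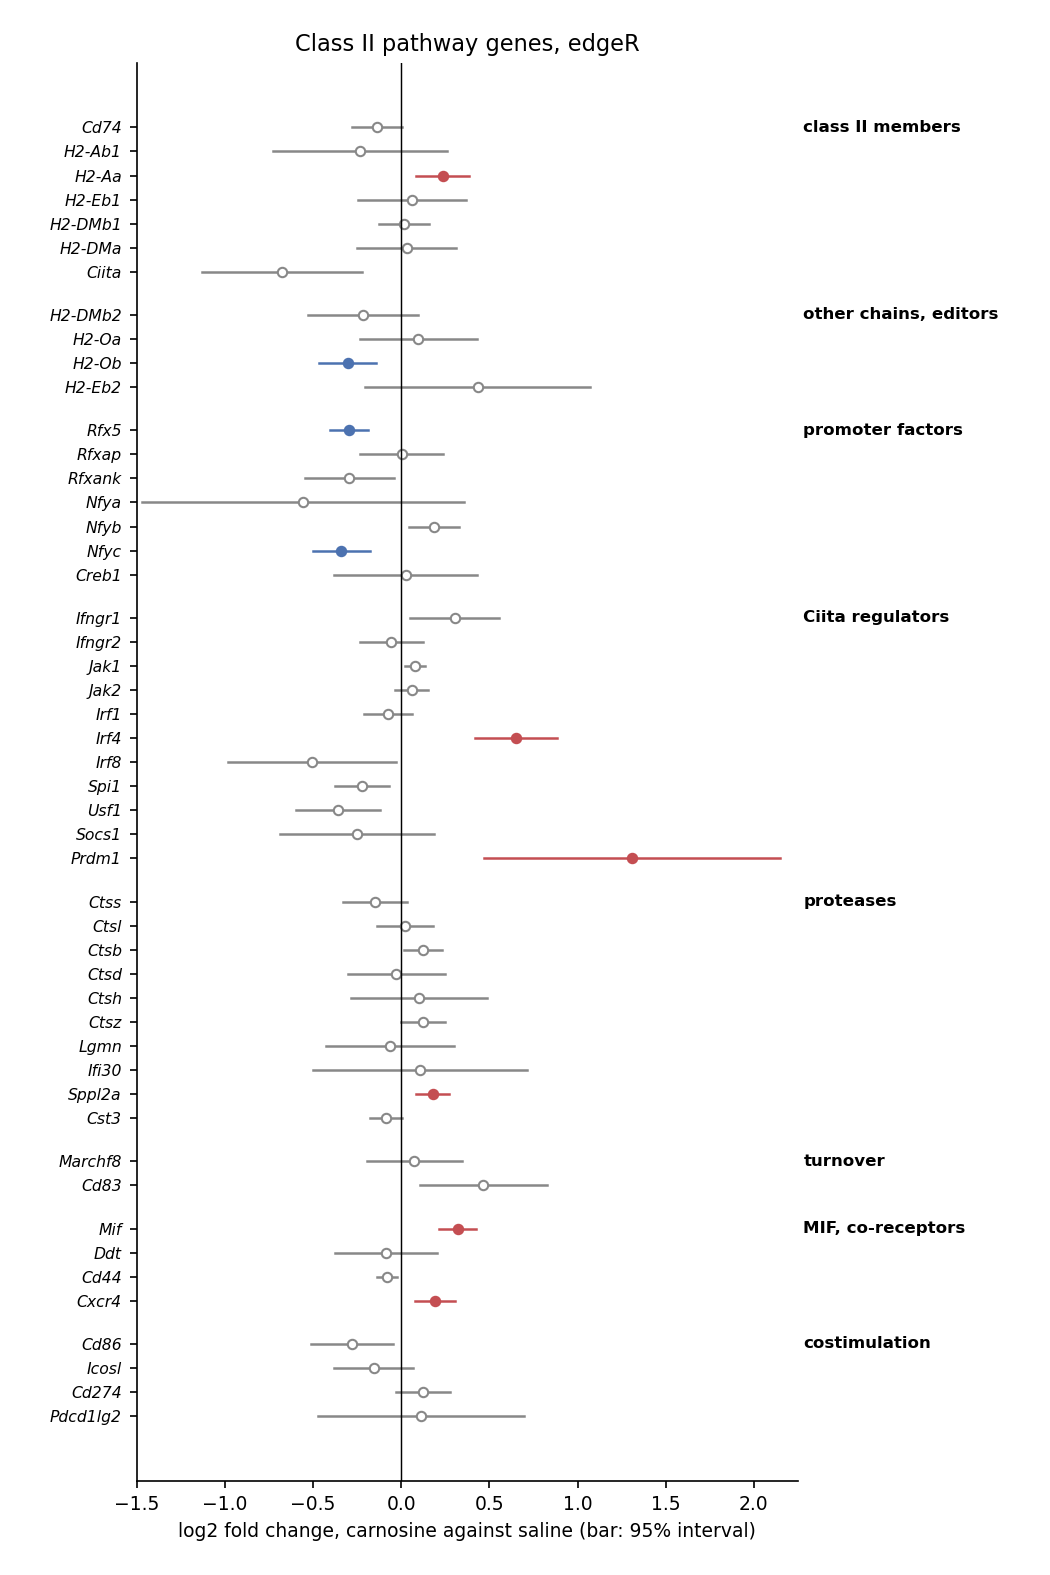
Log2 fold change, carnosine against saline, with its 95% interval from edgeR for the 7 class II genes and the other pathway genes reported here, by list. Filled points have an adjusted p under 0.05, red for higher and blue for lower in carnosine. Rfx5, Nfyc and H2-Ob lie below 0 and H2-Aa, Irf4, Prdm1, Mif, Cxcr4 and Sppl2a above it.

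Of the 7 promoter factors, the proteins that bind the boxes shown above, 2 were lower and none higher. The share called was 28.6%, against 17.9% of all genes tested. Their median log2 fold change was -0.29, against 0.00 over all genes tested, and with 7 genes these counts describe the list only. Rfx5, a DNA-binding subunit of the RFX complex on the X box, was at 70.4, 74.4 and 70.3 CPM in saline and 57.9, 57.7 and 59.7 CPM in carnosine. The groups were well apart, at 71.7 ± 2.33 and 58.4 ± 1.08 CPM (SD, n = 3). Rfx5 fell by 18.5% (log2 fold change -0.29, SE 0.05, edgeR adjusted p = 0.00568), and was called under all 17 alternatives. Nfyc, a subunit of NF-Y on the Y box, fell from 30.5 ± 1.26 to 24.1 ± 1.19 CPM (SD, n = 3; log2 fold change -0.34, SE 0.07, edgeR adjusted p = 0.0163). Its call was lost in edgeR without saline replicate 1 (0.0562), saline replicate 3 (0.0531) or carnosine replicate 1 (0.0569). Nfya, the most abundant of these genes, was at 241, 226 and 104 CPM in saline and 92.5, 203 and 93.8 CPM in carnosine. It jumped between libraries of both groups, with a log2 fold change of -0.56 and an edgeR adjusted p of 0.368. The other subunits, Rfxank, Rfxap, Nfyb, and Creb1, which binds beside the X box, did not pass the test.

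Of 12 inducers and repressors of Ciita, 2 were higher and 1 lower (25% called, against 17.9% of all genes tested). Irf4, a lymphoid regulator, rose from 7.75 ± 0.155 to 12.1 ± 0.807 CPM (SD, n = 3; log2 fold change 0.65, SE 0.10, edgeR adjusted p = 0.00464) and was called under all 17 alternatives. Prdm1, the plasma cell factor that silences Ciita, was at 1.15, 0.583 and 2.05 CPM in saline and 2.82, 3.46 and 3.49 CPM in carnosine. It rose with a log2 fold change of 1.31 (SE 0.36) and an edgeR adjusted p of 0.0444. The call for Prdm1 was lost on leaving out saline replicate 1 or 2 or any carnosine library (edgeR adjusted p of 0.0784 to 0.122) and with DESeq2 (adjusted p = 0.0567). Irf4 and Prdm1 are also on the plasma cell list given below. Jak1, the most abundant gene here, was at 343 ± 2.23 and 362 ± 5.39 CPM (SD, n = 3; edgeR adjusted p = 0.0655). Irf1, Irf8, Spi1 and the interferon-gamma receptor chains did not pass the test.

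Of the 10 proteases and related genes, 1 was higher (10% called, against 17.9% of all genes tested). Sppl2a, the membrane protease that clears the last fragment of Cd74, was at 108, 112 and 110.1 CPM in saline and 124, 121 and 128 CPM in carnosine. It rose by 13.1%, a log2 fold change of 0.18 (SE 0.04) and an edgeR adjusted p of 0.0205. The call was lost in edgeR without saline replicate 1 (0.0646), saline replicate 3 (0.0575), carnosine replicate 1 (0.0632) or carnosine replicate 3 (0.0663). Ctsd, cathepsin D, the most abundant of them, was at 237 ± 38.7 and 233 ± 24.1 CPM (SD, n = 3; edgeR adjusted p = 0.900). Ctss, which makes the main cuts in Cd74, had a log2 fold change of -0.15 (edgeR adjusted p = 0.234).

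At the cell surface Cd74 is also a receptor for the cytokine MIF. Of 4 tested genes of MIF and the co-receptors of Cd74, 2 were higher (50% called, against 17.9% of all genes tested). Mif itself was at 113, 123 and 117 CPM in saline and 143, 150.4 and 148 CPM in carnosine. The groups were far apart, and Mif rose by 24.9% (log2 fold change 0.32, SE 0.04, edgeR adjusted p = 0.00311) and was called under all 17 alternatives. Cxcr4, a chemokine receptor that pairs with Cd74, was at 58.1, 57.4 and 56.0 CPM in saline and 64.8, 67.8 and 63.1 CPM in carnosine. Its groups did not overlap, but its edgeR adjusted p of 0.0353 (log2 fold change 0.19, SE 0.05) rose to between 0.0520 and 0.102 when any 1 library was left out. Cd44, the signalling partner and the most abundant gene of the list, was at 324 ± 1.03 CPM in saline and had a log2 fold change of -0.08 (edgeR adjusted p = 0.0651). None of 4 tested costimulation genes and neither of 2 tested genes for the turnover of surface class II passed the test. The most abundant of these were Cd274 (38.8 CPM in saline, 42.2 in carnosine) and Marchf8 (log2 fold change 0.08, edgeR adjusted p = 0.695). Marchf1, the ligase that removes surface class II, was under the filter with 14, 9 and 15 counts in saline and 7, 6 and 7 in carnosine. Cd80, Cd40 and Cxcr2 were also under it.

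Class I presentation, which loads peptides from the cytosol on other MHC molecules in nearly all cells, was taken as the comparison. Of its 22 genes, 9 were lower and 1 higher (45.5% called, against 17.9% of all genes tested). The class I list had a median log2 fold change of -0.13, against 0.00 over all genes tested. Its summed level was 10120 to 10223 CPM in saline and 9013 to 9078 CPM in carnosine. Nlrc5, the class I counterpart of Ciita, was at 196, 194 and 191 CPM in saline and 158, 155 and 162 CPM in carnosine, and fell with a log2 fold change of -0.29 (SE 0.03) and an edgeR adjusted p of 0.000985. The class I heavy chain gene H2-K1 fell from 1487 ± 3.53 to 1275 ± 26.9 CPM (SD, n = 3; log2 fold change -0.22, edgeR adjusted p = 0.000446). H2-D1, the most abundant gene of the list, fell with a log2 fold change of -0.19 (edgeR adjusted p = 0.00141). The calls of Nlrc5 and H2-K1 held under all 17 alternatives. The further lower genes were B2m, H2-Q4, H2-Q6, H2-Q7, H2-T23 and Calr, and the higher one was the chaperone Canx. Reads could be split among the near-identical H2-Q genes. Whether the class II genes differed from class I in response was not tested, and the counts describe each list only.

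**Figure D3:**
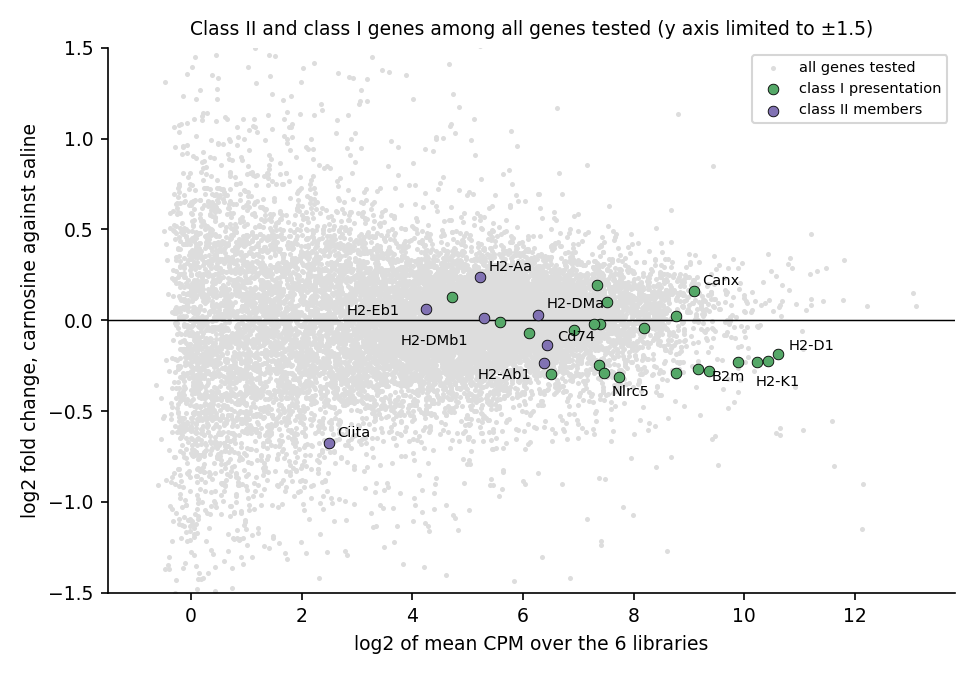
Log2 fold change, carnosine against saline, against the log2 of the mean CPM over 6 libraries for all 15298 genes tested (grey), the 7 class II genes (purple) and the 22 class I genes (green). The y axis stops at 1.5 in each direction, so genes beyond it are not drawn. Ciita is the lowest and H2-Aa the highest of the class II genes, and most of the abundant class I genes lie below 0.

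Other cells carry class II too, and some of their markers were called. The share called was 21.4% for the B cell list and 18.2% for the monocyte and macrophage list. It was 33.3% for the conventional and 14.3% for the plasmacytoid dendritic cell list, against 17.9% of all genes tested. The 18 B cell genes, all in the table, gave 3 lower of 14 tested, among them Ebf1 (log2 fold change -0.82, edgeR adjusted p = 0.0420) and Cd37 (log2 fold change -0.30, edgeR adjusted p = 0.00245), and a summed level of 236 to 256 CPM in saline and 202 to 216 CPM in carnosine. Its most abundant genes were Cd37, Cd72 and Cd79b. The monocyte and macrophage list gave 2 lower of 11 tested. Csf1r fell from 25.8 ± 0.485 to 11.9 ± 0.731 CPM (SD, n = 3; log2 fold change -1.12, edgeR adjusted p = 0.000112). The list summed to 215 to 225 CPM and 178 to 197 CPM, and its most abundant genes were Lyz2, Cd68 and Csf1r. The conventional dendritic cell list, whose most abundant genes Flt3 and Cd24a are also expressed by stem and progenitor cells, with Itgax next, summed to 1161 to 1202 CPM and 1152 to 1185 CPM. Zbtb46, its defining factor, fell from 2.59 ± 0.236 to 1.12 ± 0.323 CPM (SD, n = 3; edgeR adjusted p = 0.0157). The conventional list had 1 higher, Cd24a (log2 fold change 0.14, edgeR adjusted p = 0.0110), and 1 lower, Zbtb46, of 6 tested. Of these 6, 2 had a positive log2 fold change, and the median was -0.13. The plasmacytoid list, led by Runx2, Tcf4 and Bst2, had 1 lower of 7 tested and summed to 532 to 564 CPM and 529 to 563 CPM.

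Most of the plasma cell genes tested were higher. Of 12 tested, 8 were higher and 2 lower (83.3% called, against 17.9% of all genes tested). The list summed to 1400.4 to 1478 CPM in saline and 3837 to 4126 CPM in carnosine. The lower genes were Ighm (log2 fold change -0.29) and Sdc1 (-0.44), and Xbp1 and Derl3 did not pass the test. Igha rose from 591 ± 2.89 to 2250 ± 45.8 CPM (SD, n = 3), and Igkc and Jchain were higher too. The T and NK cell list, led by Nkg7, Cd4 and Klrb1c, had 1 lower of 5 tested (20% called). It summed to 90.7 to 94.7 CPM and 82.5 to 86.4 CPM. Nkg7 made up most of that sum, at 78.6 CPM in saline and 72.6 in carnosine, and was not called (edgeR adjusted p = 0.134). None of the marker genes in these lists was at 0 in all 6 libraries, but those not tested had low counts. Klk1, for example, had 1, 0 and 3 counts in saline and 0, 1 and 0 in carnosine. The part of these cells in the levels of H2-Aa, Ciita and the pathway genes was not tested.

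**Figure D4:**
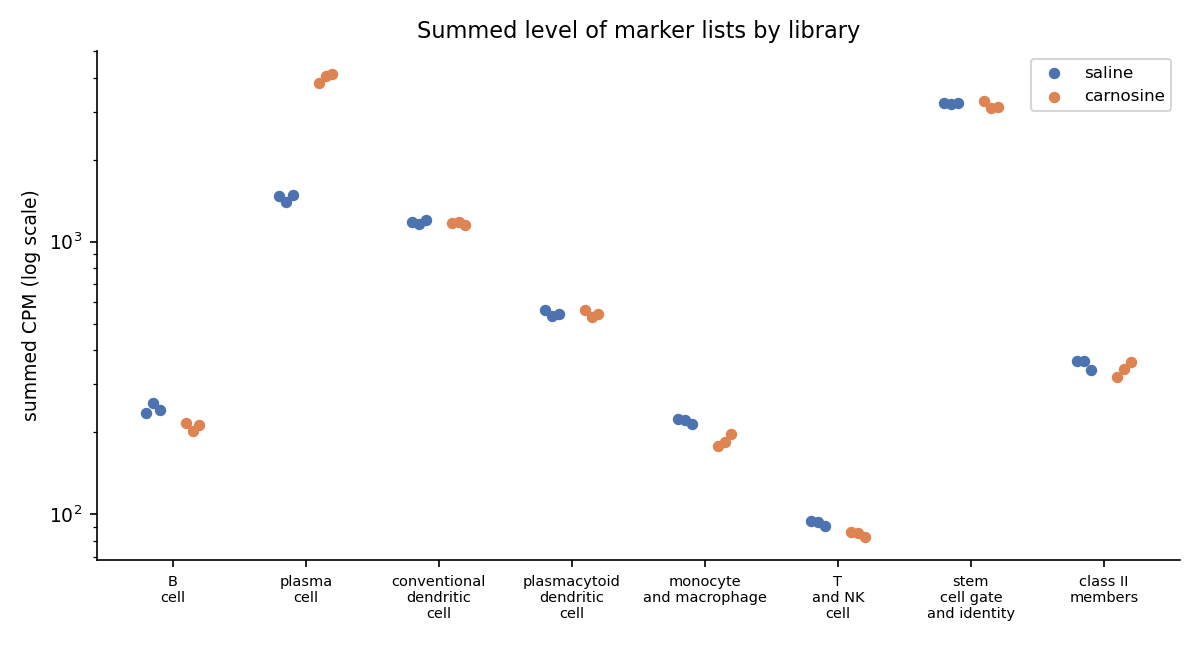
Summed CPM of each marker list and of the 7 class II genes in the 3 saline and 3 carnosine libraries, on a log scale. The sums of the plasma cell list lie higher in carnosine, those of the B cell, monocyte and macrophage, and T and NK cell lists lie lower, and those of the class II genes overlap.

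The response of single class II genes to other ways of processing is shown beside the main values. Cd74 had a negative log2 fold change and H2-Aa a positive one under all 17 alternatives, and Ciita was negative in all of them. H2-Ab1 ranged from -0.41 to 0.00, and H2-Eb1, H2-DMa and H2-DMb1 took both signs.

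**Figure D5:**
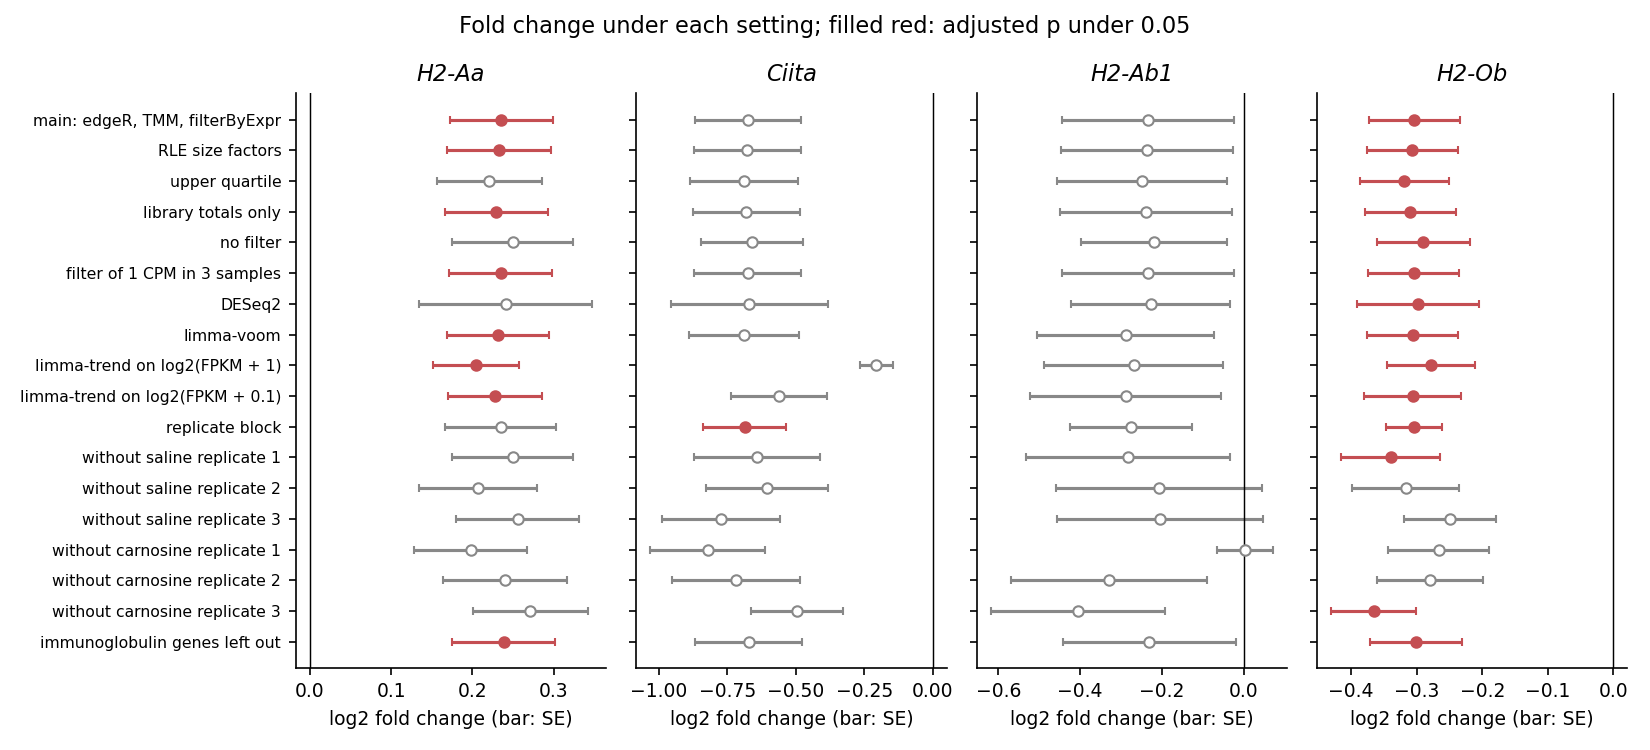
Log2 fold change, carnosine against saline, of H2-Aa, Ciita, H2-Ab1 and H2-Ob in the main edgeR fit and under each alternative. Each library left out is among the alternatives, and the other class II genes are not drawn. H2-Aa stays between 0.20 and 0.27 and Ciita below 0, while H2-Ab1 moves to 0.00 when carnosine replicate 1 is left out.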

How the data were processed

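RNA was measured in 3 saline and 3 carnosine libraries. Per the labels' protocols, poly-A RNA from samples with a RIN above 7.0 went into stranded paired-end libraries read on a NovaSeq. The authors deposited raw counts and FPKM per gene and library, per the file headers. CASAVA 1.8, HISAT2, StringTie, edgeR and GRCm38 are named in the submitters' processing notes, while the annotation release, strand setting and treatment of multi-mapped reads were not given in the sources used here.

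Counts were scaled with TMM and filtered with filterByExpr, and 15298 genes were tested with the two-sided quasi-likelihood F test of edgeR 4.0.16 (R 4.3.3), with Benjamini-Hochberg adjustment over all of them and a threshold of 0.05. Totals of 10304539 to 13251332 counts set the precision. Log2 fold changes are carnosine against saline, and CPM are on the TMM scale. Alternatives, 17 for each gene, used other scalings and filters, DESeq2 1.42.0, limma 3.58.1 (voom, and trend on log2 FPKM with pseudocounts of 1 and 0.1), a replicate block, each library left out, and, added after seeing the data, immunoglobulin genes left out. The fit was tested on simulated data, with 69, 62 and 69 of 15298 genes changed by 0.5, 1 and 2 in log2. There, false calls made up 11.5% of the calls, more than the threshold allows, and 42% of changes of 0.5 were recovered. Far fewer genes changed there than were called here, so these shares may not carry over. Changes under 0.5, such as that of H2-Aa, were not simulated. Calls near the threshold are uncertain.

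The members and lists were chosen with earlier results of these data known. The genes named are the members, the other class II chains and editors, the called genes of each list (up to 4, by smallest p), its most abundant gene, Nlrc5, and the 3 most abundant genes of each marker list. The genes most like Cd74 are the top 5 by Pearson r. Brd2, Dexi and other genes named outside this rule were chosen after their values were seen. Libraries of a group differed by more than sampling noise (chi-square per degree of freedom 5.16 to 6.32), so each was counted as 1 sample. Some genes of the lists are counted but their values are not reported here.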

Additional observations from a re-analysis of the deposited data

How the results depend on the processing

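With 3 libraries a group and Ciita at 43 to 79 counts, the precision for scarce members is low. Of the 7 class II genes, 1 was called (H2-Aa). The number fell to 0 with upper-quartile scaling, with no filter, with DESeq2, at an adjusted p under 0.01, and on leaving out any 1 library (0 to 0). The 9 called pathway genes became 5 to 7 with 1 library left out and 3 at an adjusted p under 0.01. The 2738 genes called in all became 1753 to 1892 with 1 library left out and 1107 at an adjusted p under 0.01. The cause was not tested, beyond fewer libraries or a stricter threshold by construction. With upper-quartile scaling the split of all calls was 1289 higher and 1402 lower, against 1455 and 1283.

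The labels do not say whether same-numbered libraries are paired. The deviations of same-numbered libraries correlated at 0.0234, -0.104 and 0.0972, and not every library correlated best with its own number. Such values cannot show whether the samples were paired. A fit with the replicate number as a block called 1756 genes in all and 6 pathway genes. Under this block the 1 class II gene called was Ciita (edgeR adjusted p = 0.0464, over its alternatives 0.0464 to 0.139) and not H2-Aa (0.0849, over its alternatives 0.0417 to 0.133).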

Other observations

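The genes whose pattern was most like that of Cd74, the member with the highest FPKM, were ranked by Pearson r of log2 CPM over the 6 libraries among 11425 genes. The 5 with the highest r were Pias3 (0.987), Dcaf12l1 (0.982), Zfp994 (0.981), Rbmxl1 (0.980) and Rpl10 (0.980). With the mean of each group subtracted, they were Lrr1 (0.996), Zfp90 (0.994), Zfp994 (0.993), Mrps12 (0.991) and Fanci (0.991). Only Zfp994 was in both lists. The points share library and depth and only 6 of them were available, so these are descriptions with no p.

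Among the genes of the marker lists, Ighm, the mu heavy chain, fell from 324 ± 0.453 to 266 ± 4.95 CPM (SD, n = 3) while Igha rose (edgeR adjusted p = 0.000436 for Ighm). Sdc1, the plasma cell surface proteoglycan, fell as well, from 37.7 ± 2.30 to 27.8 ± 2.32 CPM (edgeR adjusted p = 0.0115). Without its immunoglobulin chains the plasma cell list had 5 higher and 1 lower of 8 tested genes (75% called, against 17.9% of all genes tested).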
